A study of Homo sapiens with 9 samples.

Results

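The NF-kB subunits and their feedback targets were measured here as 10 genes, the rows of the deposited gene table that carry the symbols NFKB1, NFKB2, RELA, RELB, REL, NFKBIA, TNFAIP3, TNFAIP2, ICAM1 and BCL3. All 10 were found among the 60719 genes of the table, and all 10 passed the filter for testing. The study exposed recipient MDA-MB-231 cells, a human breast cancer line of wild-type genotype in the labels, for 72 h to small extracellular vesicles (sEVs) from donor cells of that same line. In the TIS sEV group the donors had received nocodazole, a drug that blocks microtubule assembly, at 100 ng/ml for 72 h, followed by 72 h of release in vesicle-depleted medium. TIS stands for therapy-induced senescence. In the Cont sEV group the donors had received the solvent DMSO on that schedule, and the No sEV group received no vesicles. Each group has 3 libraries, for 9 in all, and all recipients were cultured for 72 h in vesicle-depleted medium before total RNA was taken. Nothing in the labels tells whether the replicates came from separate cultures or vesicle preparations. The p-values therefore reflect the spread among these libraries, which may be technical.

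NF-kB is a family of transcription factors that act as dimers of the 5 subunits encoded by NFKB1, NFKB2, RELA, RELB and REL. In resting cells the inhibitor encoded by NFKBIA holds the dimers in the cytoplasm. Ligands such as TNF and interleukin 1 activate the IKK kinases, which mark the inhibitor for destruction. Freed dimers enter the nucleus and switch on target genes, several of which encode brakes on the pathway, so their transcripts are widely used to follow its activity. MDA-MB-231 cells are known for NF-kB activity without an added ligand. Senescent cells secrete many NF-kB-driven cytokines.

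Values are TPM, transcript abundances scaled for length so that each library sums to 1000000. They keep no read depth, which is therefore unknown. A library detected 21292 to 21975 genes above 0. Libraries of a group correlated at 0.991 to 0.994 over genes (Pearson's r), and libraries of different groups at 0.992 to 0.994. Markers of the line were high, with VIM at 2206 to 2299 TPM, while ESR1, PGR and CDH1 were at most at 0.577 TPM. ERBB2 (26.2 to 30.7 TPM) and EPCAM (21.1 to 25.9 TPM) were not near 0. None of 8 markers of blood, endothelial and fibroblast cells exceeded 3.84 TPM, the highest value of CD14. Messenger RNAs of the mitochondrial genome held a TPM share of 1.86 ± 0.195% in TIS sEV, 2.54 ± 0.362% in Cont sEV and 2.22 ± 0.186% in No sEV libraries (SD, n = 3 each). Because TPM is a share, that difference moves all other genes slightly, and its part in the values given here was not tested.

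All 10 genes were expressed in every library, and their levels differed far more between genes than between groups. Mean TPM over the 9 libraries ran from 269.7 for ICAM1 to 3.77 for REL, a 71.6-fold range of levels. The order was ICAM1, NFKBIA (214.8), RELA (104.6), TNFAIP2 (80.8), NFKB2 (68.4), NFKB1 (37.8), RELB (25.8), TNFAIP3 (20.6), BCL3 (15.0) and REL. Each gene lay above the next one in all 9 libraries. Only TNFAIP2 and NFKB2 had ranges over the libraries that touched, at 70.9 to 87.7 and 64.4 to 71.0 TPM. ICAM1 and NFKBIA lay above 96.0% and 94.9% of the 13879 tested genes by mean level, whereas REL lay above 20.3%. The coefficient of variation of TPM over the 9 libraries was 2.17% for NFKBIA, 2.22% for RELA and 2.80% for ICAM1. It was highest for REL (7.91%), TNFAIP3 (7.78%) and TNFAIP2 (7.44%), against a median of 6.76% over all tested genes.

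**Figure D1:**
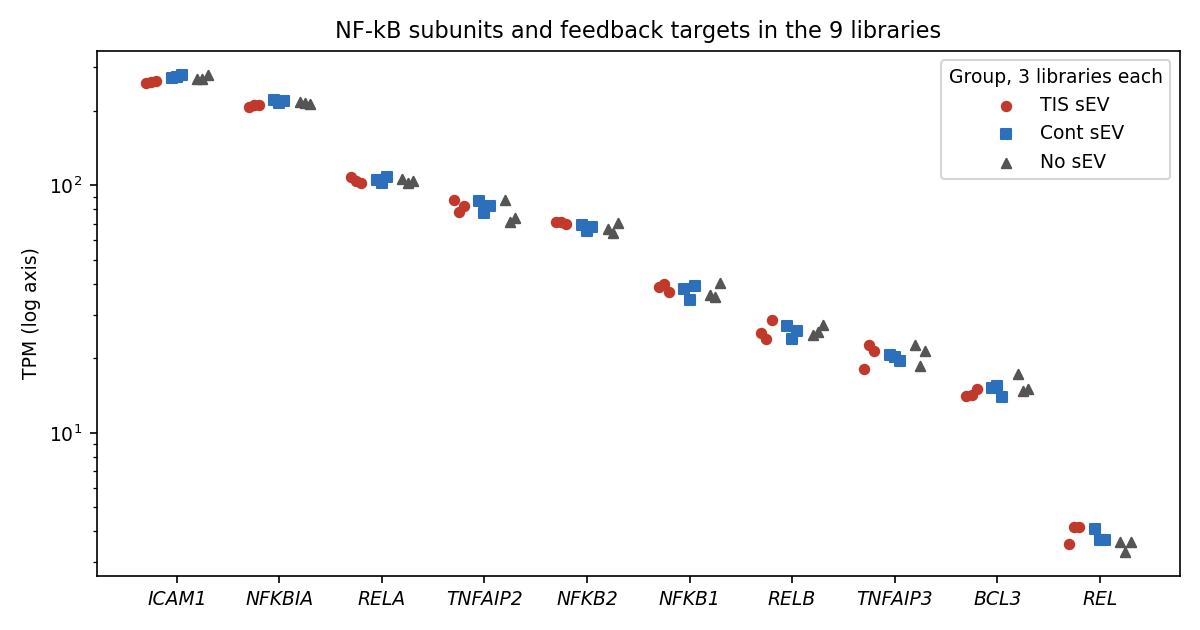
TPM of the 10 genes in each of the 9 libraries, on a log axis, with the groups TIS sEV, Cont sEV and No sEV from left to right within each gene. The genes run from ICAM1 (259.9 to 280.2 TPM) to REL (3.31 to 4.15 TPM), and the points of the 3 groups lie close together for every gene.

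None of the 10 genes passed the test for a difference between groups. By limma (moderated test, Benjamini-Hochberg adjusted p under 0.05), 0 of 10 passed in TIS sEV vs Cont sEV, where 0.0937% of the 13879 tested genes did. The count was also 0 of 10 in TIS sEV vs No sEV, where 0.00721% of all tested genes passed. In Cont sEV vs No sEV it was 0 of 10, with 0.0% of all tested genes passing. A moderated F test over the 3 groups passed 0 of 10, against 0.0216% of all tested genes.

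At an unadjusted p under 0.05 there were 2 of the 10 in TIS sEV vs Cont sEV, ICAM1 and NFKBIA, against 10.0% of all tested genes. Both were lower, as were 2.93% of all tested genes, and 0 were higher (7.07%). TIS sEV vs No sEV had 1, ICAM1, against 7.97% of all tested genes. It was lower (1.64%), and 0 were higher (6.33%). Cont sEV vs No sEV had 0, against 6.03% of all tested genes (3.53% higher and 2.5% lower). The F test had 1, ICAM1, against 8.72% of all tested genes.

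Groups did not overlap for 3 of the 10 in TIS sEV vs Cont sEV, NFKB2 higher (10.9% of all tested genes) and NFKBIA and ICAM1 lower (4.47%), where 15.4% of all tested genes did so in either direction. For TIS sEV vs No sEV the count was 2, with 0 higher (11.3%) and NFKBIA and ICAM1 lower (2.77%), against 14.1% in either direction. For Cont sEV vs No sEV it was 1, REL, higher (6.72%), with 0 lower (4.47%), against 11.2% in either direction.

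The intervals are for single genes, unadjusted, and reflect only the spread among these libraries. Over the 10 genes, log2 fold changes on the log2(TPM + 1) scale ran from -0.0735 to 0.0684 in TIS sEV vs Cont sEV, and no 95% confidence interval reached beyond 0.235, which is 1.18-fold. In TIS sEV vs No sEV they ran from -0.104 to 0.133, with no interval beyond 0.33 (1.26-fold). For Cont sEV vs No sEV the range was -0.0711 to 0.0947, with no interval beyond 0.292 (1.22-fold). The furthest bound was that of REL each time, and adding 1 to its low TPM understates its fold change. The median of the 10 was 0.00968 in TIS sEV vs Cont sEV, against 0.0203 over all tested genes. It was 0.00695 in TIS sEV vs No sEV (0.032 over all) and 0.0087 in Cont sEV vs No sEV (0.011 over all). In each comparison 6 of the 10 had a higher and 4 a lower mean, where 59.6% (TIS sEV vs Cont sEV), 66.7% (TIS sEV vs No sEV) and 56.5% (Cont sEV vs No sEV) of all tested genes were higher. These counts and medians turn with the scaling. With median-of-ratios scaling 4, 4 and 5 of the 10 were higher in that order of comparisons, with medians of -0.011, -0.0253 and -0.00298, and with quantile normalization 4, 4 and 6, with medians of -0.0147, -0.0205 and 0.00748. These are relative levels in bulk RNA, so fewer cells with a transcript and less of it per cell cannot be told apart.

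**Figure D2:**
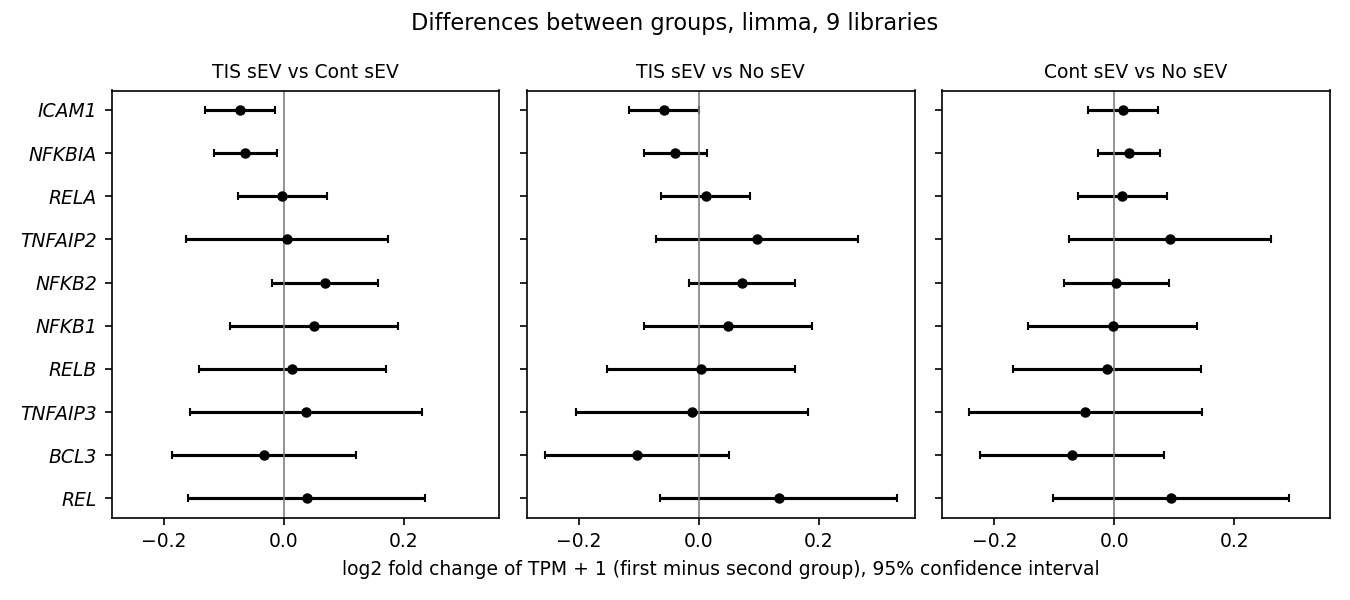
Log2 fold change of TPM + 1 (first named minus second named group) with its 95% confidence interval for each of the 10 genes in the 3 comparisons, from limma on 9 libraries. In TIS sEV vs Cont sEV the intervals of ICAM1 (-0.132 to -0.0153) and NFKBIA (-0.117 to -0.0119) lie below 0 before adjustment over genes, and the others include 0.

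The DNA that NF-kB dimers contact is a short kappaB site, and the windows of 4 of the genes are shown for where such letters lie near their starts. Windows run from 250 bases before to 50 after the start site, from RefSeq on GRCh38.p14, and are written 5′ to 3′ on the strand of the gene. Of the 3 starts of NFKB2, the one with the most kappaB matches is shown. Capitals mark matches on either strand to the 10-base kappaB consensus, searched by name, or to GGAANNTCC, a 9-base motif added after ICAM1 had no match to the first. The motifs can overlap.
NFKBIA (chr14:35404700-35404999, minus strand): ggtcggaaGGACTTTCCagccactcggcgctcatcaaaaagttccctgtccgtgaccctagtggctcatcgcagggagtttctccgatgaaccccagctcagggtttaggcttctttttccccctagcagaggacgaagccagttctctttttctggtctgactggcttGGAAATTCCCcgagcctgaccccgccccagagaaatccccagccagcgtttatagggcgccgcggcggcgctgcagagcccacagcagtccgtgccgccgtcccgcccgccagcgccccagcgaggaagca
TNFAIP3 (chr6:137867009-137867308, plus strand): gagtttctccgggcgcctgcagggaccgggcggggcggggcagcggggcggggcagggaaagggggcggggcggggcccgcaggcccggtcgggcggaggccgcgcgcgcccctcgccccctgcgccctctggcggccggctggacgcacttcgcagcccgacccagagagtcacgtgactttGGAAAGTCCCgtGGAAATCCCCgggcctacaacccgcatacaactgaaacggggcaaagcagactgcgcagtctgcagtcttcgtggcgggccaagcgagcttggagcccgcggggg
ICAM1 (chr19:10270870-10271169, plus strand): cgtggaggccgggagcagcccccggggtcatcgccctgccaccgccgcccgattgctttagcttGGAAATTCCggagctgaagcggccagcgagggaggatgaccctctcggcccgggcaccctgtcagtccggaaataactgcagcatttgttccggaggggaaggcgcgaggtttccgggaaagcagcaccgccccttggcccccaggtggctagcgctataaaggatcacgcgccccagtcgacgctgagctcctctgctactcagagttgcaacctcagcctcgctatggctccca
NFKB2 (chr10:102394328-102394627, plus strand, 1 of 3 starts): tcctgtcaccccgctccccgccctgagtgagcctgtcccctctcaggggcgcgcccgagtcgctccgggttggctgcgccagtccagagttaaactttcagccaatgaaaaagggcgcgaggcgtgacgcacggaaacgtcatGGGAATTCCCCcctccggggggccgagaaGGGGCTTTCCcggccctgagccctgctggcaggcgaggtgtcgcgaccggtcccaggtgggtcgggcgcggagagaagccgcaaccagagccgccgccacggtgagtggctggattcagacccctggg
The kappaB match of NFKBIA covers bases -81 to -72 from the start site, and a second GGAANNTCC match lies at -242 to -234. TNFAIP3 holds a pair of kappaB matches, at -67 to -58 and -55 to -46. ICAM1 has its GGAANNTCC match at -186 to -178. In the NFKB2 window the consensus matches at -107 to -97, where 2 overlapping positions qualify, and again at -78 to -69.

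Of the 10 genes, 9 had a window (RELB is not among them), with 13 windows in all since some have several starts. The kappaB consensus occurred in 7 of the 13, in windows of NFKB1, NFKB2, REL, NFKBIA, TNFAIP3 and BCL3. Among all 35116 windows of that length 11.3% held it, and 4.56% held GGAANNTCC. A match is a run of letters and not a measured binding site, and the expression data here do not test it.

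**Figure D3:**
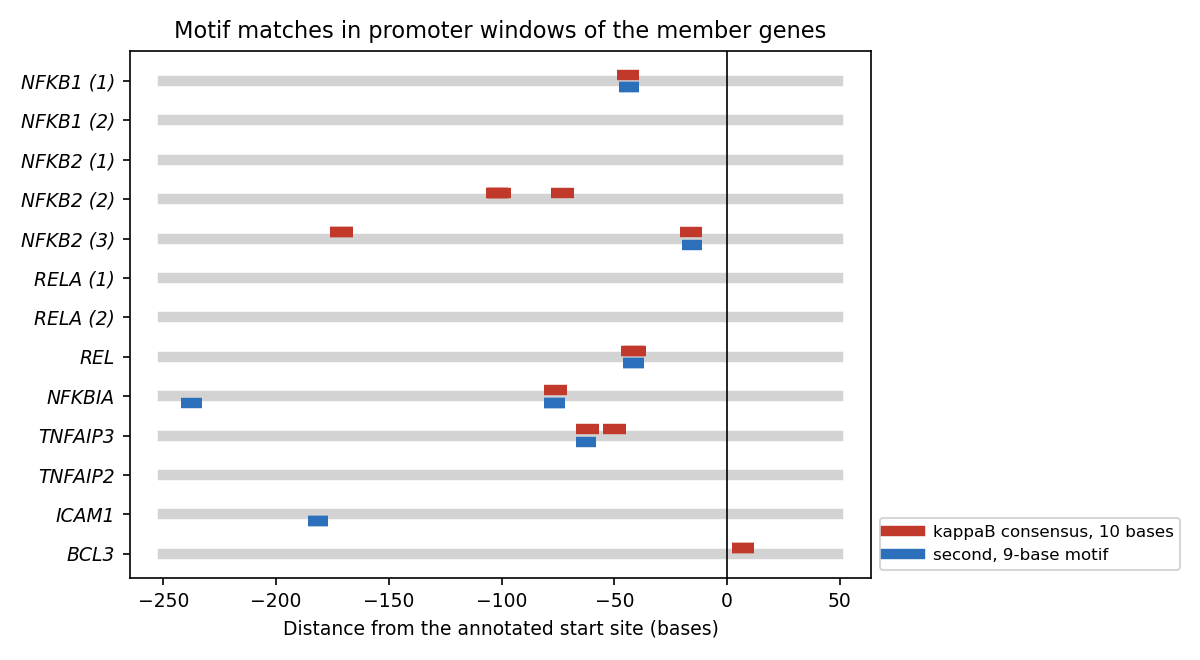
Motif matches in the promoter windows, by distance in bases from the annotated start site (black line at 0), with red for the kappaB consensus and blue for the 9-base motif. Several starts of a gene are numbered by coordinate. Matches lie in the windows of NFKBIA at -81 to -72, of TNFAIP3 at -67 to -58 and -55 to -46, and of ICAM1 at -186 to -178, while those of RELA and TNFAIP2 hold none.

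The inhibitor and the adhesion gene had their lowest values with TIS sEV, by a few percent and without passing the test. NFKBIA encodes IkB-alpha, which retains the dimers in the cytoplasm and is itself induced by them. It had 207.5, 211.0 and 210.4 TPM with TIS sEV, 222.2, 215.7 and 219.7 TPM with Cont sEV, and 216.7, 216.0 and 213.7 TPM with No sEV. All 3 TIS sEV libraries lay below the other 6, which overlap with each other. The mean for TIS sEV differed from that for Cont sEV by -4.38%, a log2 fold change of -0.0643 (SE 0.0235, limma, adjusted p = 0.396). Against No sEV it differed by -2.72%, at -0.0396 (SE 0.0235, adjusted p = 0.71). The difference between Cont sEV and No sEV was 0.0246 (SE 0.0235, adjusted p = 0.927).

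ICAM1, which encodes an adhesion molecule that binds leukocyte integrins, had 259.9, 260.5 and 264.0 TPM with TIS sEV. With Cont sEV it had 271.5, 273.9 and 280.2 TPM, and with No sEV 269.1, 268.0 and 280.1 TPM. Again the 3 TIS sEV libraries lay below all other libraries, and the Cont sEV and No sEV values overlapped. The log2 fold change was -0.0735 against Cont sEV (SE 0.0261, limma, adjusted p = 0.379) and -0.0586 against No sEV (SE 0.0261, adjusted p = 0.626), with means that differed by -4.99% and -4.01%. Both comparisons use the same TIS sEV libraries, so they are not independent of each other. These 2 genes are 2 of the 10, where 0.951% of all tested genes had their TIS sEV libraries below all others. Of the 10 genes, 0 had them above all others, against 4.14% of all tested genes. The pattern was singled out after the values were seen.

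Both values kept their direction in all 17 alternative fits of each comparison, and none passed. Because the TIS sEV libraries lay below all others, only rescaling could have turned these signs, so the kept direction adds little. For NFKBIA in TIS sEV vs Cont sEV the log2 fold change ran from -0.0854 to -0.0544 and the adjusted p from 0.279 to 0.628. For ICAM1 these ranges were -0.0947 to -0.0605 and 0.315 to 0.656. In TIS sEV vs No sEV, NFKBIA ran from -0.0726, with median-of-ratios scaling, to -0.0324, with an adjusted p of 0.603 to 0.871. ICAM1 in TIS sEV vs No sEV ran from -0.0915, with median-of-ratios scaling, to -0.0384, without No sEV replicate 3, with an adjusted p of 0.587 to 0.798.

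**Figure D4:**
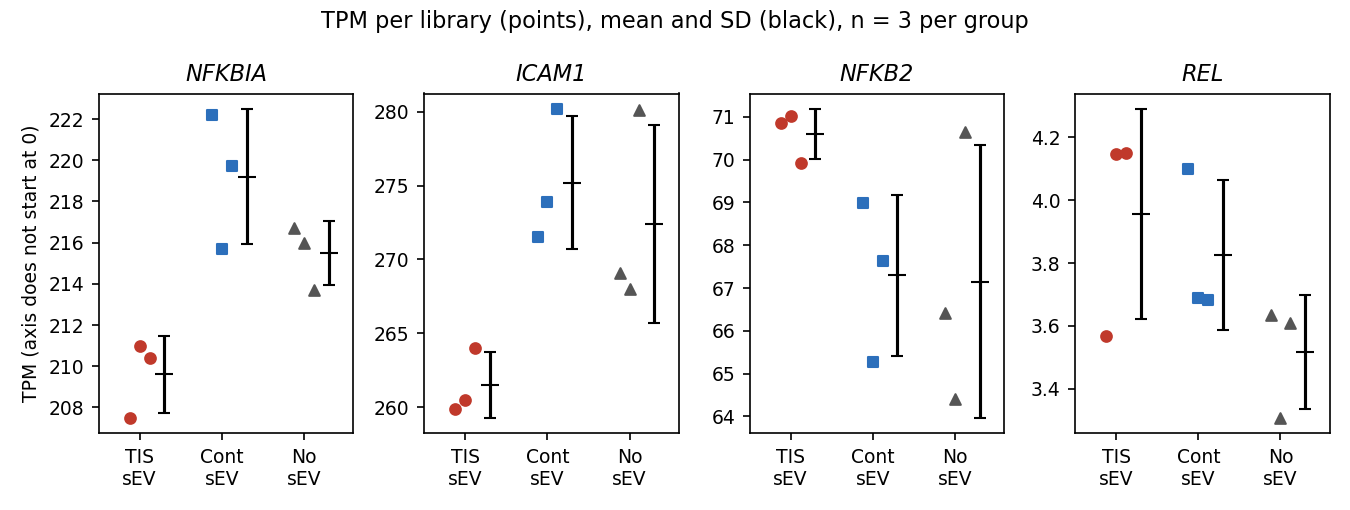
TPM per library of NFKBIA, ICAM1, NFKB2 and REL, the genes with at least 1 pair of groups that do not overlap, with mean and SD in black (n = 3 per group) on axes that do not start at 0. The TIS sEV points of NFKBIA (207.5 to 211.0 TPM) and ICAM1 (259.9 to 264.0 TPM) sit below all points of the other groups.

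None of the 5 subunit genes passed the test, and the shares given here were not tested. Summed over the 5 subunits, TPM was 246.3, 243.3 and 242.1 with TIS sEV, 243.1, 229.7 and 244.2 with Cont sEV, and 237.2, 230.5 and 245.9 with No sEV. The groups overlapped. RELA, whose product p65 carries a strong activation domain, made up 43.0 ± 0.715% of that sum in TIS sEV, 43.9 ± 0.732% in Cont sEV and 43.7 ± 1.32% in No sEV libraries (SD, n = 3 each). The share of NFKB2 was 28.9 ± 0.211%, 28.2 ± 0.41% and 28.2 ± 0.439% in that order of groups, and that of NFKB1 15.8 ± 0.563%, 15.6 ± 0.501% and 15.7 ± 0.677%. RELB held between 9.88% and 11.8% in the single libraries, and REL between 1.43% and 1.71%.

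RELA had 107.7, 104.2 and 102.4 TPM with TIS sEV, 104.8, 102.1 and 108.0 TPM with Cont sEV, and 106.2, 101.8 and 103.9 TPM with No sEV. The 3 groups share one range. Its log2 fold change was -0.00268 in TIS sEV vs Cont sEV (SE 0.0333, limma, adjusted p = 0.989), with a 95% interval from -0.0769 to 0.0716, the narrowest among the subunits.

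NFKB2, which encodes the p100 precursor of p52 and belongs to the noncanonical arm of the pathway, had 70.9, 71.0 and 69.9 TPM with TIS sEV. It had 69.0, 65.3 and 67.6 TPM with Cont sEV and 66.4, 64.4 and 70.6 TPM with No sEV. The TIS sEV libraries lay above the Cont sEV libraries, which 10.9% of all tested genes did, and overlapped with No sEV through No sEV replicate 3. Log2 fold changes were 0.0684 against Cont sEV (SE 0.0395, limma, adjusted p = 0.611) and 0.0721 against No sEV (SE 0.0395, adjusted p = 0.691). The value against No sEV was 0.0430 without No sEV replicate 2 and 0.109 without No sEV replicate 3, and 0.0395 with median-of-ratios scaling. Against Cont sEV it was 0.0377 with quantile normalization.

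NFKB1 encodes the p105 precursor of p50, the usual partner of p65. It had 38.9, 39.9 and 37.0 TPM with TIS sEV, 38.1, 34.6 and 39.2 TPM with Cont sEV, and 36.2, 35.4 and 40.5 TPM with No sEV. No group stood apart. The log2 fold change of 0.0505 in TIS sEV vs Cont sEV (SE 0.0628, limma, adjusted p = 0.839) became -0.0019 without Cont sEV replicate 2, the library with the lowest NFKB1 value. The ratio of NFKB2 to NFKB1 TPM was 1.83 ± 0.0562 in TIS sEV, 1.81 ± 0.081 in Cont sEV and 1.8 ± 0.049 in No sEV libraries (SD, n = 3 each).

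RELB, the subunit that pairs with p52 in the noncanonical arm, had 25.3, 24.0 and 28.6 TPM with TIS sEV, 27.1, 24.0 and 25.8 TPM with Cont sEV, and 24.8, 25.6 and 27.2 TPM with No sEV. Its highest value was in a TIS sEV library, its lowest was tied between TIS sEV replicate 2 and Cont sEV replicate 2, and the groups overlapped. Its log2 fold change was 0.0145 against Cont sEV (SE 0.0701, limma, adjusted p = 0.97), and its sign turned when libraries were rescaled. REL, the proto-oncogene c-Rel known from lymphocytes, was the least abundant subunit. It had 3.57, 4.15 and 4.15 TPM with TIS sEV, 4.10, 3.69 and 3.68 TPM with Cont sEV, and 3.63, 3.31 and 3.61 TPM with No sEV. Its Cont sEV libraries lay above its No sEV libraries, as they did for 6.72% of all tested genes, and TIS sEV overlapped with both. Log2 fold changes of REL were 0.133 in TIS sEV vs No sEV (SE 0.0884, limma, adjusted p = 0.74) and 0.0947 in Cont sEV vs No sEV (SE 0.0884, adjusted p = 0.922). In Cont sEV vs No sEV its value was 0.0540 without Cont sEV replicate 1 and 0.0609 without No sEV replicate 2.

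The remaining feedback targets overlapped between groups in every comparison, and none passed the test. TNFAIP3 encodes A20, a ubiquitin-editing enzyme that shuts off signalling upstream of IKK. It had 18.2, 22.6 and 21.5 TPM with TIS sEV, 20.7, 20.3 and 19.5 TPM with Cont sEV, and 22.6, 18.7 and 21.5 TPM with No sEV. The Cont sEV values fell inside the range of each other group. Its log2 fold change was 0.0368 in TIS sEV vs Cont sEV (SE 0.0869, limma, adjusted p = 0.926), and -0.0255 without TIS sEV replicate 2.

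TNFAIP2, a TNF-induced gene linked to membrane protrusions, had 87.7, 77.9 and 82.4 TPM with TIS sEV, 86.7, 77.6 and 82.8 TPM with Cont sEV, and 87.2, 70.9 and 74.1 TPM with No sEV. The first replicate was the highest in every group, and the groups overlapped. Against No sEV the log2 fold change was 0.0974 for TIS sEV (SE 0.0754, limma, adjusted p = 0.772) and 0.0925 for Cont sEV (SE 0.0754, adjusted p = 0.91). Without No sEV replicate 1 these were 0.185 and 0.18, and neither passed.

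BCL3 encodes an atypical nuclear IkB protein that binds p50 and p52 dimers. It had 14.2, 14.3 and 15.0 TPM with TIS sEV, 15.2, 15.4 and 14.0 TPM with Cont sEV, and 17.3, 14.8 and 15.0 TPM with No sEV. No sEV replicate 1 was the highest of the 9. Its log2 fold change in TIS sEV vs No sEV was -0.104 (SE 0.0688, limma, adjusted p = 0.739), and -0.0361 without that library.

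All 10 genes are annotated as protein-coding in GENCODE 29 on GRCh38. NFKBIA (ENSG00000100906.11) spans chromosome 14 from 35401511 to 35404749, and ICAM1 (ENSG00000090339.9) chromosome 19 from 10270835 to 10286615. RELA (ENSG00000173039.19) lies on chromosome 11 from 65653596 to 65663094, and NFKB1 (ENSG00000109320.13) on chromosome 4 from 102501329 to 102617302. RELA overlaps AP001362.2, a noncoding gene on the opposite strand at 2.46 to 4.76 TPM, and TNFAIP3 overlaps the antisense gene AL357060.1 at 0.955 to 2.2 TPM. REL shares its strand with the overlapping noncoding gene AC010733.2, at no more than 0.96 TPM. The sources used here do not state whether counting used strand, so reads of such pairs may not be told apart.

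Around the 10 genes, the pathway was expressed from receptors to targets, and 0 of its other genes passed the test in any comparison, although PTGS2 did so in TIS sEV vs Cont sEV when libraries were rescaled. The lists, chosen with earlier results of these data known, hold 105 further genes, of which 95 were tested. In TIS sEV vs Cont sEV 66 of the 95 (69.5%) had a higher mean and 29 a lower one, where 59.6% of all tested genes were higher, and their log2 fold changes had a median of 0.0474, where all tested genes had 0.0203. At an unadjusted p under 0.05 there were 15 of 95 (15.8%, against 10.0% of all tested genes). Of these 13 were higher, as were 7.07% of all tested genes, and 2 lower (2.93%). In TIS sEV vs No sEV 71 (74.7%) were higher and 24 lower, where 66.7% of all tested genes were higher, with a median of 0.0438 against 0.032. At an unadjusted p under 0.05 there were 14 of 95 (14.7%, against 7.97%), 13 higher (6.33% of all tested genes) and 1 lower (1.64%). In Cont sEV vs No sEV 56 (58.9%) were higher and 39 lower, where 56.5% of all tested genes were higher, with a median of 0.0126 against 0.011. At an unadjusted p under 0.05 there were 8 of 95 (8.42%, against 6.03%), 4 higher (3.53% of all tested genes) and 4 lower (2.5%). The first and second of these comparisons share the TIS sEV libraries. With median-of-ratios scaling, 55 of the 95 (57.9%) were higher in TIS sEV vs Cont sEV and 54 (56.8%) in TIS sEV vs No sEV, where 50.3% and 50.7% of all tested genes were. With quantile normalization the counts were 56 and 52.

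Ligands that open the pathway were present unevenly. TNF itself was at 0.111 to 0.434 TPM and below the filter, whereas the interleukin 1 genes were abundant, IL1B at 237.7 to 272.9 TPM and IL1A at 139.2 to 161.7 TPM. Of 12 ligand genes 6 were tested, and 0 passed. All 6 had a higher mean in TIS sEV vs Cont sEV, and their median log2 fold change was 0.0678. All 6 were also higher after either rescaling. In TIS sEV vs No sEV 4 of the 6 were higher, and 3 after either rescaling. In Cont sEV vs No sEV 2 were higher and 4 lower, with a median of -0.0753. In TIS sEV vs Cont sEV, LTB (lymphotoxin beta) and IL1A had the smallest p (limma, adjusted p = 0.389 and 0.457). LTB was at 7.71 ± 0.574 TPM with TIS sEV, 6.24 ± 0.457 TPM with Cont sEV and 7.16 ± 0.903 TPM with No sEV. IL1A was at 157.2 ± 5.56 TPM in TIS sEV, 148.5 ± 2.27 TPM in Cont sEV and 141.8 ± 3.61 TPM in No sEV libraries (SD, n = 3 each). In TIS sEV vs No sEV, IL1A and IL1B had the smallest p. Their log2 fold changes were 0.148 (SE 0.0333) and 0.132 (SE 0.0296), with an adjusted p of 0.318 for each (limma).

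Among receptors, the TWEAK receptor gene TNFRSF12A was the most abundant of the list at 212.8 to 238.2 TPM, followed by LTBR (96.1 to 106.5 TPM) and the TNF receptor gene TNFRSF1A (84.6 to 102.2 TPM). The interleukin 1 receptor gene IL1R1 was at 2.79 to 4.28 TPM. All 14 receptor genes were tested and 0 passed, with 6 higher and 8 lower in TIS sEV vs Cont sEV. TNFRSF12A was at 234.4 ± 3.97 TPM with TIS sEV and 217.6 ± 6.37 TPM with Cont sEV (limma, adjusted p = 0.367), and TLR4 at 30.2 ± 0.314 and 32.3 ± 0.996 TPM (adjusted p = 0.532). The No sEV means lay between these, at 225.2 ± 10.0 TPM for TNFRSF12A and 30.7 ± 1.33 TPM for TLR4.

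The IKK complex genes CHUK (21.8 to 24.8 TPM), IKBKB (15.9 to 23.3 TPM) and IKBKG (36.6 to 38.9 TPM) were all expressed. Of 11 IKK and upstream kinase genes 0 passed, and 7 were higher and 4 lower in TIS sEV vs Cont sEV, but 4 higher and 7 lower after either rescaling. IKBKE, a kinase of the interferon arm, was at 21.8 ± 0.913 TPM with TIS sEV and 24.4 ± 1.4 TPM with Cont sEV (limma, adjusted p = 0.378). Its relative TBK1 was at 26.1 ± 1.58 and 28.7 ± 1.8 TPM in those groups (adjusted p = 0.537). The No sEV libraries had 22.8 ± 0.948 TPM of IKBKE and 26.1 ± 1.48 TPM of TBK1, nearer to TIS sEV than to Cont sEV.

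The inhibitor list holds genes of the IkB family, NFKBIA among them, and related genes. Of its 8 genes 6 had a higher and 2 a lower mean in TIS sEV vs Cont sEV (5 and 3 after either rescaling), and 0 passed. NFKBIB, which encodes IkB-beta, was at 25.1 ± 0.28 TPM with TIS sEV and 22.2 ± 0.426 TPM with Cont sEV (log2 fold change 0.165, SE 0.0472, limma, adjusted p = 0.278). NKIRAS1, which encodes a Ras-like protein that binds IkB-beta, was at 42.3 ± 2.79 and 36.9 ± 0.591 TPM in those groups (adjusted p = 0.229). The No sEV means lay between them, at 23.5 ± 1.23 TPM for NFKBIB and 40.4 ± 0.787 TPM for NKIRAS1. NFKBIZ, the gene of the nuclear protein IkB-zeta, was at 45.5 ± 1.6 TPM in TIS sEV, 45.4 ± 0.665 TPM in Cont sEV and 41.1 ± 3.07 TPM in No sEV libraries. Its adjusted p was 0.581 in TIS sEV vs No sEV, 0.804 in Cont sEV vs No sEV and 0.996 in TIS sEV vs Cont sEV.

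Among 22 adaptor and ubiquitin enzyme genes, 13 were higher and 9 lower in TIS sEV vs Cont sEV and 0 passed. BIRC3, which encodes the ubiquitin ligase cIAP2, was at 114.9 ± 11.8 TPM with TIS sEV and 104.0 ± 6.6 TPM with Cont sEV (limma, adjusted p = 0.533). SHARPIN, a part of the linear ubiquitin assembly complex, was at 65.5 ± 0.937 and 61.9 ± 3.28 TPM in those groups (adjusted p = 0.561). The No sEV libraries had 102.8 ± 0.845 TPM of BIRC3 and 61.4 ± 1.32 TPM of SHARPIN. Of 13 deubiquitinase and other brake genes, which include TNFAIP3, 9 were higher and 4 lower (7 and 6 after either rescaling) and 0 passed. RNF11, whose product works with A20, was at 132.0 ± 4.07 TPM with TIS sEV and 121.8 ± 8.26 TPM with Cont sEV (adjusted p = 0.446). It was at 123.3 ± 2.21 TPM with No sEV.

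Other NF-kB targets ranged from IER3 (2419 to 2898 TPM) and CXCL8 (1397 to 1556 TPM) to VCAM1 and SELE, which were listed at 0 in all 9 libraries. Of the 34 listed, 33 were in the table under their symbols and 29 were tested. Against Cont sEV, 23 were higher with TIS sEV and 6 lower, with a median of 0.0508, and 0 passed. After median-of-ratios scaling 17 were higher and 12 lower. PTGS2, the cyclooxygenase 2 gene, was at 142.5 ± 1.75 TPM with TIS sEV and 161.3 ± 3.7 TPM with Cont sEV, a log2 fold change of -0.178 (SE 0.0304, limma, adjusted p = 0.0894). It passed with median-of-ratios scaling (-0.199, adjusted p = 0.0441) and with quantile normalization (-0.199, adjusted p = 0.0408), and in none of the other alternatives, where the adjusted p was 0.0697 to 0.325. It was at 141.8 ± 4.03 TPM with No sEV, and in Cont sEV vs No sEV its log2 fold change was 0.185 (SE 0.0304, adjusted p = 0.448). The chemokine gene CXCL1 was at 677.0 ± 11.1 TPM with TIS sEV and 605.7 ± 16.5 TPM with Cont sEV (adjusted p = 0.127), and at 596.3 ± 19.1 TPM with No sEV. Of the 29, 25 were higher in TIS sEV vs No sEV and 4 lower, with a median of 0.0493 and 0 passing. That count was 20 higher and 9 lower after either rescaling. LIF, which encodes a cytokine of the interleukin 6 family, was at 54.8 ± 1.95 TPM in TIS sEV, 50.4 ± 2.7 TPM in Cont sEV and 47.3 ± 1.91 TPM in No sEV libraries (TIS sEV vs No sEV log2 fold change 0.209, SE 0.049, adjusted p = 0.347).

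**Figure D5:**
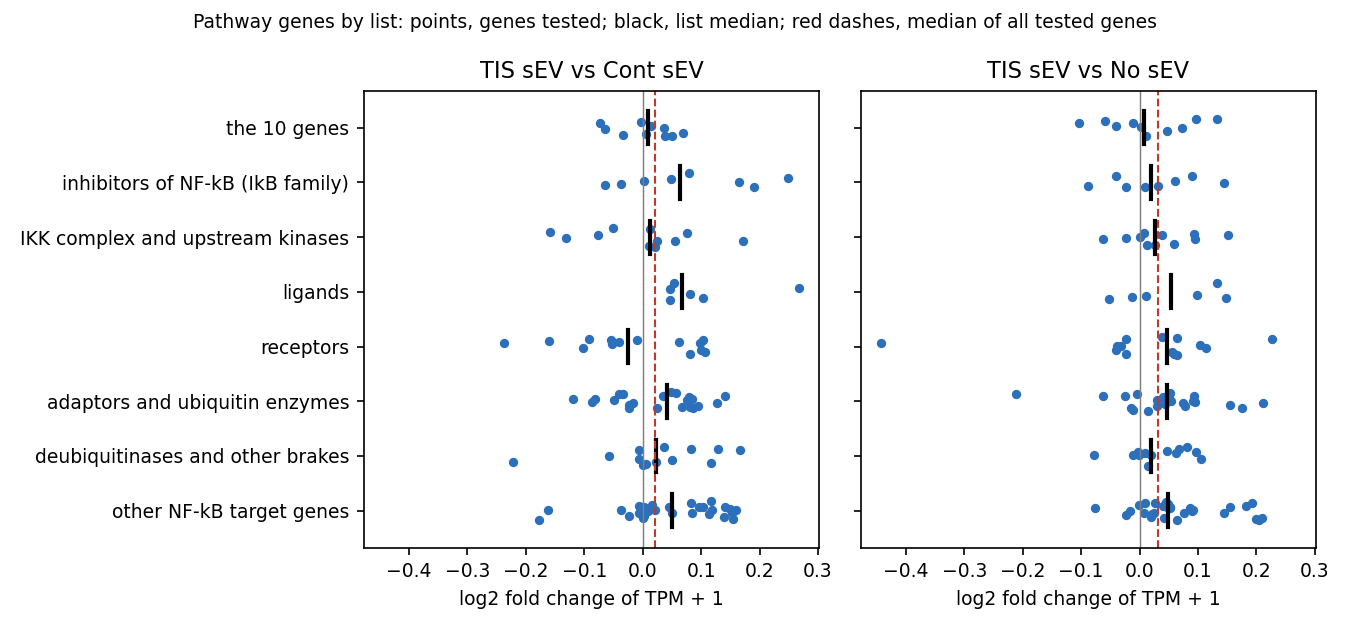
Log2 fold change of TPM + 1 of each tested gene, by list, in TIS sEV vs Cont sEV and TIS sEV vs No sEV, with list medians in black and the median of all tested genes as red dashes (0.0203 and 0.032). The 10 genes centre at 0.00968 and 0.00695, the 29 other targets at 0.0508 and 0.0493, and a gene can be in several lists. No rescaling was applied.

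Over the 9 libraries, the genes most like NFKBIA in log2(TPM + 1), among 10474 others with a mean of at least 5 TPM, were PPP1R10 (Pearson's r = 0.95), ANTXR1 (0.946) and ENPP1 (0.934). Those most like NFKB2 were ACTN1 (0.976) and DNAJC14 (0.953). These are the highest of many coefficients over libraries that share groups and scaling, and they are given as a description only.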

How the data were processed

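Salmon 1.4.0, Trim Galore 0.6.6, FastQC 0.11.9 and DESeq2 1.28.0 appear in the submitters' processing notes, with GRCh38.p13 as build. No source used here states the annotation release. The authors deposited 1 table of gene-level TPM. TPM keeps no depth, so no count model or counting interval was used.

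Columns were matched to samples through the labels, and Ensembl IDs to symbols (99.58% matched). 1 listed gene had no match and is not analysed here. The 13879 genes that reached 1 TPM in 3 or more of the 9 libraries were tested. limma 3.58.1 in R 4.3.3 fitted log2(TPM + 1) for all 9 libraries, with a variance trend and two-sided moderated tests, adjusted by Benjamini-Hochberg over all tested genes within a comparison at 0.05. A pseudocount of 1 understates fold changes of low genes. Confidence intervals are for single genes, unadjusted. The fitting steps were tested on simulated data with independent noise, without scaling shifts or replicate effects. Figures used matplotlib 3.10.9.

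The members and lists were chosen with earlier results of these data known. All 10 members are named; from each list up to 2 genes of smallest p per comparison could be named, plus genes of the ligand, receptor, inhibitor and IKK lists for their level. IER3, CXCL8, VCAM1 and SELE were named for their level after it was seen. Up to 3 genes of like pattern were named for NFKBIA and NFKB2, and 1 of them is not reported here. Alternatives were other pseudocounts, filters and scalings, a replicate block, only the libraries compared, and leaving out each library.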

Additional observations from a re-analysis of the deposited data

How the results depend on the processing

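None of the 10 genes passed in any comparison or in the F test under any alternative run, replicate block included (0 of 10 with the block each time). At an unadjusted p under 0.05 the replicate block gave 2 of 10 in TIS sEV vs No sEV (ICAM1 and TNFAIP2) and 1 in Cont sEV vs No sEV (TNFAIP2), against 1 and 0 without it. TNFAIP2 then had an unadjusted p of 0.0414 and 0.0499 (limma, adjusted p = 0.649 and 0.813). The share of all tested genes under 0.05 with the block was not determined, so these counts have no reference and are not read as a result. The smallest adjusted p of the 10 genes in any alternative was 0.279, for NFKBIA. Of 30 log2 fold changes (10 genes, 3 comparisons), 17 kept their sign throughout. The other 13 were at most 0.0505 in size and changed sign at least once.

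With median-of-ratios scaling, TIS sEV vs Cont sEV was -0.00589 for RELB and -0.0162 for TNFAIP2, TIS sEV vs No sEV -0.0217 for RELA and -0.0290 for RELB, and Cont sEV vs No sEV -0.00796 for NFKB2. Quantile normalization gave -0.0117 for RELB and -0.0177 for TNFAIP2 against Cont sEV, and -0.00608 for RELA and -0.0350 for RELB in TIS sEV vs No sEV. These scalings brought the median over all tested genes close to 0.

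Leaving out single libraries, TIS sEV vs Cont sEV ran from -0.0019 to 0.0860 for NFKB1, -0.0224 to 0.0179 for RELA, -0.0539 to 0.0661 for RELB, -0.0255 to 0.126 for TNFAIP3 and -0.0379 to 0.0462 for TNFAIP2. TIS sEV vs No sEV ran from -0.00869 to 0.0270 for RELA, -0.0655 to 0.0544 for RELB and -0.0864 to 0.0773 for TNFAIP3. Cont sEV vs No sEV ran from -0.0390 to 0.0553 for NFKB1, -0.0255 to 0.0402 for NFKB2, -0.00684 to 0.0332 for RELA, -0.0516 to 0.0326 for RELB and -0.123 to 0.00665 for TNFAIP3. The cause of these turns was not tested.

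Over all tested genes, calls in TIS sEV vs Cont sEV were 13. They were 3 with only the compared libraries, 17 with quantile normalization and 2 to 13 with 1 library left out, the lowest without TIS sEV replicate 1 or Cont sEV replicate 2. TIS sEV vs No sEV gave 1, but 9 with no filter and 2 with only the compared libraries. Cont sEV vs No sEV gave 0, but 7 with no filter and 1 at 5 TPM. The F test gave 3, but 13 with no filter, 11 at 5 TPM and 6 with quantile normalization. REL had no value with the filter of at least 5 TPM. Over 10483 genes, deviations from group means correlated at -0.0574 to 0.14 in same-numbered pairs of libraries and -0.194 to 0.205 in others. Such correlations over many genes cannot tell whether replicate numbers pair the libraries for single genes. TNFAIP2 had the same order of replicates in all 3 groups. The authors' depth is unknown, so the limit that depth sets was not assessed.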
